A study of Rattus norvegicus with 20 samples.

Results

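The Notch pathway genes described here are Notch1, Notch2, Jag1, Hes1, Hes5, Hes3 and Hes2. They were taken as all probe sets annotated to these rat symbols, and all 7 genes were found, among 4736 genes with a probe set of their own, on 10 of the 8740 tested probe sets. Notch1, Hes1 and Hes5 have an _at and a _g_at probe set each, and both probe sets of a gene are annotated to a single source sequence. The other genes have 1 probe set each. RNA of cultured rat progenitors and their derivatives was measured on 20 single-colour Affymetrix arrays.

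The labels give 4 groups. RA/Fsk cultures (4 cultures on 4 arrays) are low-density CCg progenitors given RA and Fsk with the aim of neurons. FBS cultures (4 cultures on 6 arrays) are the same kind of cells given FBS with the aim of astrocytes. HD cultures (3 cultures on 6 arrays) are high-density progenitors, and LD cultures (3 cultures on 4 arrays) are the low-density CCg progenitors without treatment. RA, Fsk and FBS are the common abbreviations of retinoic acid, forskolin and fetal bovine serum. CCg is not expanded in the labels and is not named for the HD arrays, so density and CCg cannot be told apart between HD and LD. Strain, age, tissue of origin and length of treatment were not given in the sources used here.

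Notch receptors sit in the membrane and are activated by ligands, such as Jag1, on a neighbouring cell. Binding leads to cleavage by a metalloprotease of the ADAM family and then by gamma-secretase, which frees the intracellular domain of the receptor. This domain enters the nucleus, joins the DNA-binding protein RBPJ and switches on targets, of which the Hes genes are the best known. Hes proteins are basic helix-loop-helix (bHLH) repressors that hold down proneural genes, and in the developing brain Hes1 and Hes5 keep neural progenitors from differentiating.

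The promoters of Hes1 and Hes5 are shown because these are the classical RBPJ targets and because most of the differences below concern their transcripts. Each sequence is from RefSeq on GRCr8, runs 5′ to 3′ on the strand of the gene and spans 250 bases before to 50 bases after the start. Capitals mark the RBPJ core TGGGAA, or TTCCCA where it lies on the other strand. The Hes1 window is chr11:84212996-84213295 on the minus strand, and the Hes5 window is chr5:170804327-170804626 on the plus strand.
Hes1: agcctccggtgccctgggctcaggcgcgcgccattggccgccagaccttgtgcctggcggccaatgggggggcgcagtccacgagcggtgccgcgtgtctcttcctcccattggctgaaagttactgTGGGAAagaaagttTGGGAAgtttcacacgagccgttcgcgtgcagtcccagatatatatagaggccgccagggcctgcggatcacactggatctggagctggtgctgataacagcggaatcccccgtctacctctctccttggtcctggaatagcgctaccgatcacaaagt
Hes5: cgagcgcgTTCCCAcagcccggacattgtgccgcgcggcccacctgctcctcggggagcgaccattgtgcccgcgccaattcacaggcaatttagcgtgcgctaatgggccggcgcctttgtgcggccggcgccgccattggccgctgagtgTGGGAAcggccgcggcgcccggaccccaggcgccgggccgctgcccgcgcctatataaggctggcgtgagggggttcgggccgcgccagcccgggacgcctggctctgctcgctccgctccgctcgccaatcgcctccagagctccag

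The Hes1 window held 2 matches to the RBPJ core, both on the strand of the gene, beginning 123 and 109 bases before the start and thus 14 bases apart. The Hes5 window also held 2, one on the other strand beginning 242 bases before the start and one on the strand of the gene 98 bases before it. Of 33469 promoters of this length, 25.7% held at least 1 match on either strand and 3.85% held 2 or more. The windows of Notch1, Notch2, Jag1 and Hes2 held 0 matches, which says only that these letters are not in those 300 bases. Hes3 has no sequence here. The N box CACNAG, the site that Hes repressors bind, matched 4 times in the Hes1 window, 4 times in the Notch1 window, 1 time in the Hes2 window and 0 times in the windows of Hes5, Notch2 and Jag1, and 43.1% of all promoters held at least 1. No RBPJ core overlapped an N box. The E box CANNTG matched 1 time each in the windows of Notch2, Jag1, Hes5 and Hes2 and 0 times in those of Notch1 and Hes1, against 72.1% of all promoters with at least 1. The exact letters TATAAA, a form of the TATA box, were found in 0 of the 6 windows and in 14.2% of all promoters. Other forms of the TATA box were not searched. All motifs were searched on both strands, and a match is a description of the letters, not evidence of binding.

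The deposited values are linear intensities, here averaged over the arrays of a culture on the log2 scale. A difference is given on the scale of log2(intensity + 4.99), the first-named group minus the other with its standard error (SE), and the added 4.99 understates changes of dim probe sets. The threshold was an adjusted p of 0.05 in limma (Benjamini-Hochberg over all 8740 probe sets), and rose or fell is written only of probe sets that passed it. Intensities of different probe sets are not compared with each other. Statements that all cultures of a group lie above or below those of another describe only the values shown. The share of all 8740 probe sets with such a separation was not counted, and nothing is read from it.

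Array-wide trimmed means lay between 200.3 and 200.5 and array medians between 41.0 and 57.5, and cultures of a group correlated at r = 0.940 to 0.985. Of 12 probe sets of 7 progenitor genes, 0 rose and 1 (Sox11, -0.76) fell in RA/Fsk against LD. Against LD, FBS had 3 that rose, all of Slc1a3 (1.49 to 1.97), and Fabp7 (-1.79), Ptprz1 (-1.70) and Sox11 (-1.19) fell, while 0 passed in HD against LD. Nes, whose protein is the usual progenitor marker, did not pass in these comparisons. Among 16 probe sets of 8 astrocyte genes, 7 rose, from 3 genes (Glul, Aldoc and S100b), and 0 fell in RA/Fsk against LD. In FBS against LD 9 rose, from 5 genes, and 1 fell (Slc1a2, -1.26). Over the array 4.71% rose and 3.54% fell in RA/Fsk against LD, and 13.2% and 12.3% in FBS against LD. Gfap and Gjb6 are not among the genes measured here. Of 15 probe sets of 7 neuron genes, 0 rose and 1 (Gap43) fell in RA/Fsk against LD, so the name neurons is not borne out by the measured markers, with Tubb3, Dcx, Stmn2 and Eno2 not measured. Of the same 15, 2 rose (Nefm, 2.26, and an _s_at probe set of Map2, 0.68) and 0 fell in FBS against LD. In HD against LD 1 rose (the same Map2 probe set, 1.68) and 0 fell. The other Map2 probe sets did not pass in these comparisons. Among them, the _at probe set gave -0.03 in FBS and 0.06 in HD against LD (adjusted p = 0.946 and 0.939). Another _s_at probe set gave 1.52 in HD against LD (0.106). None of the 111 marker probe sets was listed at 0 on an array. The log2 ratio of the 5′ over the 3′ GAPDH control probe sets, a sign of RNA integrity, was -0.47 to -0.11 in RA/Fsk, -0.16 to -0.01 in FBS, -0.20 to 0.05 in HD and -0.47 to -0.21 in LD.

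Notch1 (_g_at) and Hes5 (_at) fell in FBS against LD, by 0.51 and 1.21 on the log2 scale, and did not pass in FBS against HD (adjusted p = 0.151 and 0.0794). Hes1 (_at) rose in FBS against HD by 1.28 and did not pass in FBS against LD (adjusted p = 0.207). In the other 4 comparisons 0 of the 10 probe sets passed.

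Against LD, 0 of 10 probe sets rose and 0 fell in RA/Fsk, where 4.71% of all probe sets rose and 3.54% fell, and 1 of the 10 had an unadjusted p under 0.05. In FBS against LD 0 of 10 rose and 2 fell, while 13.2% of all probe sets rose and 12.3% fell, and 4 of the 10 had an unadjusted p under 0.05. In HD against LD 0 of 10 rose and 0 fell, where 0.435% of all probe sets rose and 0.423% fell, and 0 of the 10 had an unadjusted p under 0.05. These comparisons share the 3 LD cultures.

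Between the treatments, RA/Fsk minus FBS, 0 of 10 rose and 0 fell (8.27% and 10.1% of all probe sets, 0 of 10 at an unadjusted p under 0.05). In RA/Fsk minus HD 0 of 10 rose and 0 fell (4.85% and 5.32%, 2 of 10 unadjusted). In FBS minus HD 1 of 10 rose and 0 fell (11.3% and 9.70%, 4 of 10 unadjusted). RA/Fsk minus HD and FBS minus HD share the 3 HD cultures. The 2 falls and the 1 rise among 10 probe sets are thus close to the shares of the array, and nothing is read from these counts about the pathway. The median difference over the 10 probe sets was -0.10 in RA/Fsk minus LD, -0.28 in FBS minus LD and -0.10 in HD minus LD, beside -0.05, -0.09 and -0.08 over all 8740. It was -0.01 in RA/Fsk minus FBS, -0.08 in RA/Fsk minus HD and -0.17 in FBS minus HD, beside 0.06, 0.07 and 0.03 over all probe sets.

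**Figure D1:**
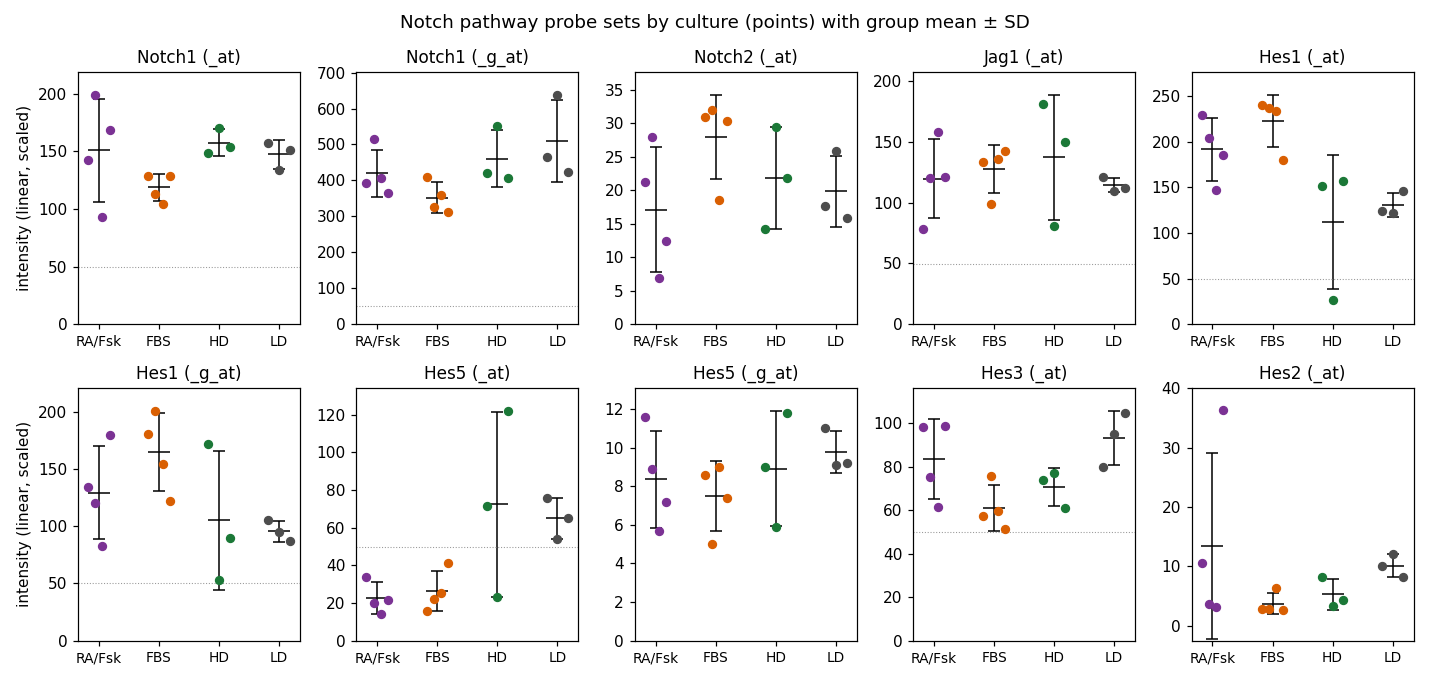
Intensity (linear scale, axis drawn per probe set) of the 10 probe sets in each RA/Fsk, FBS, HD and LD culture, with points for cultures, bars for the group mean ± SD (n = 4, 4, 3 and 3) and a dotted line at the median positive value of 49.9. Hes5 (_at) lies at 13.9 to 41.2 in all 8 treated cultures and at 54.0 to 75.7 in the LD cultures, and HD culture 2 is the lowest of all for both Hes1 probe sets.

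Notch1 encodes the receptor most studied in neural progenitors, where it holds cells undifferentiated. On the _g_at probe set the RA/Fsk cultures 1 to 4 had intensities of 393, 514, 405.5 and 365, and the FBS cultures 1 to 4 had 409, 326, 361 and 311. The HD cultures 1, 2 and 4 had 421, 552 and 408, and the LD cultures 1, 3 and 4 had 466, 638 and 422. All 4 FBS cultures lay below all 3 LD cultures, while RA/Fsk and HD cultures overlapped both. The mean was 352 ± 43.4 in FBS (SD, n = 4) and 509 ± 114 in LD (SD, n = 3). Notch1 (_g_at) fell by 0.51 ± 0.17 (SE) in FBS against LD, which is 1.43-fold lower (95% interval -0.87 to -0.15, adjusted p = 0.0366). Fewer cells that express the gene and less RNA per cell cannot be told apart in such bulk samples, here or below.

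The call on Notch1 ended without FBS culture 2 (adjusted p = 0.0874), FBS culture 3 (0.0611), FBS culture 4 (0.0966), LD culture 1 (0.0537) or LD culture 3, the brightest, without which the difference was -0.34 (0.210). The GAPDH ratio of every FBS culture was above that of every LD culture, and with it as a covariate the difference was -0.28 (adjusted p = 0.379).

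The _at probe set of Notch1 had 142, 199, 93.3 and 168 in RA/Fsk and 129, 113, 104.5 and 128 in FBS. It had 149, 170.5 and 153 in HD and 157.5, 133 and 151 in LD. FBS cultures were again all below the HD and the LD cultures, and RA/Fsk culture 3 was the lowest of the 14. The differences were -0.30 ± 0.21 in FBS minus LD (interval -0.75 to 0.14, adjusted p = 0.342) and -0.40 ± 0.21 in FBS minus HD (-0.84 to 0.05, adjusted p = 0.239). RA/Fsk minus LD was -0.02 on the _at (interval -0.46 to 0.43) and -0.27 on the _g_at probe set (-0.63 to 0.10). Across the 14 cultures the log2 values of the Notch1 probe sets correlated at r = 0.438, given as a description, as both come from the same arrays.

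Notch2 encodes another receptor, expressed in neural progenitors and in many other tissues. Its probe set was dim, below the median of all values in 14 of 14 cultures. It read 21.2, 27.9, 6.9 and 12.5 in RA/Fsk and 31.0, 32, 18.6 and 30.3 in FBS. In HD it read 14.2, 29.4 and 21.8, and in LD 17.7, 25.9 and 15.9. The groups overlapped throughout. RA/Fsk minus FBS was -0.66 ± 0.33 (interval -1.36 to 0.04, adjusted p = 0.212), and the 6 pairs of arrays from the same culture differed by a median of 0.81 log2, more than this.

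Jag1 encodes a membrane ligand of the Notch receptors. Its probe set gave 78.5, 120.5, 158 and 121 in RA/Fsk and 133, 98.7, 136 and 143 in FBS. The HD cultures gave 181, 80.7 and 150.1 and the LD cultures 121, 109.8 and 112. The LD cultures lay close together within the wider range of each other group. All differences were small, at 0.02 ± 0.26 in RA/Fsk minus LD (interval -0.53 to 0.58), 0.14 ± 0.26 in FBS minus LD (-0.41 to 0.69) and 0.18 ± 0.28 in HD minus LD (-0.41 to 0.77). The smallest adjusted p of these was 0.761. RA/Fsk culture 1 and HD culture 2 were the lowest for Jag1, and HD culture 1 was the highest.

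**Figure D2:**
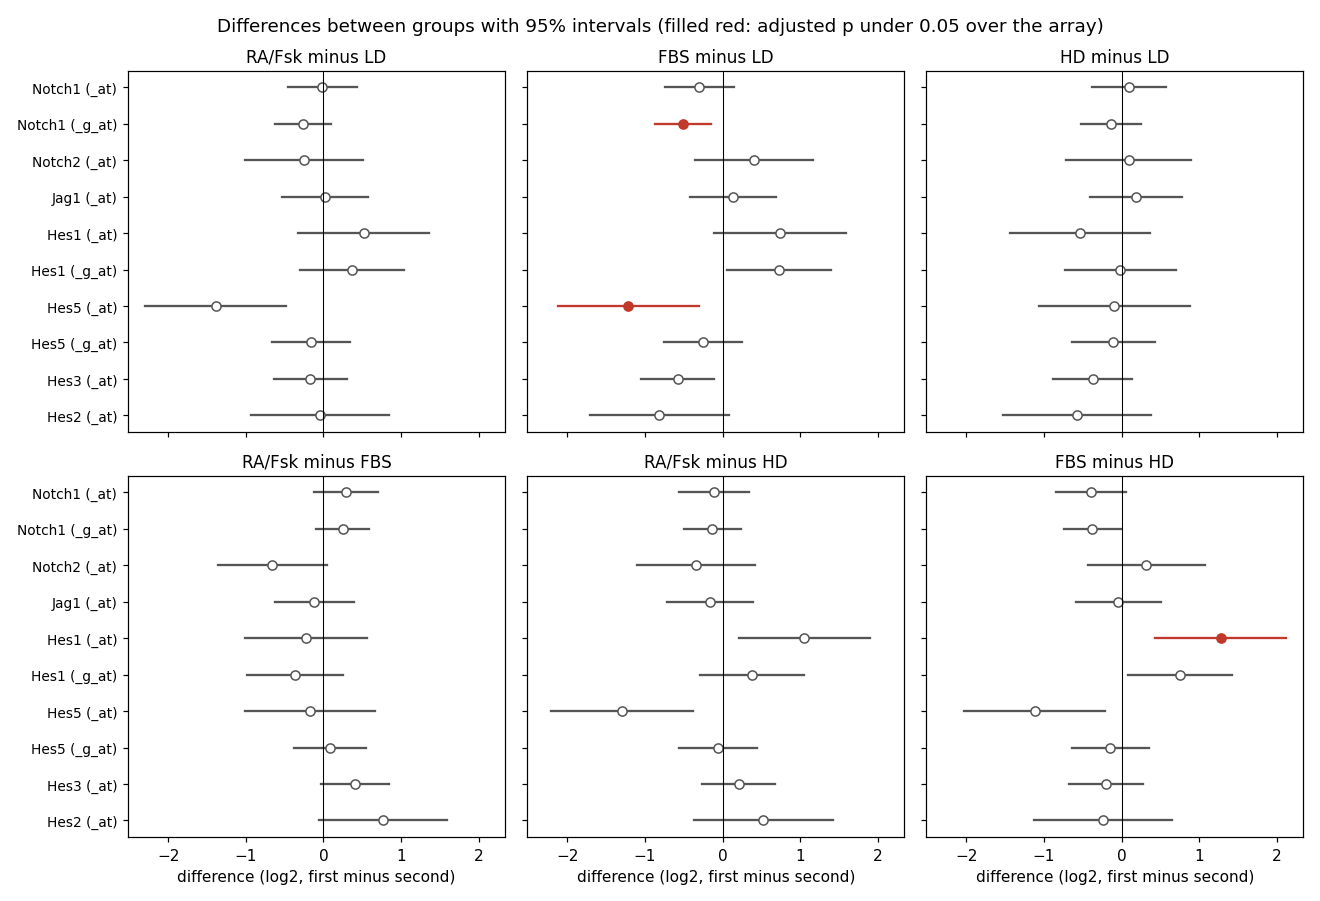
Differences of the 10 probe sets in the 6 comparisons (points, log2, first-named group minus the other, with 95% intervals), filled red where the adjusted p over the array was under 0.05. The filled points are Notch1 (_g_at, -0.51) and Hes5 (_at, -1.21) in FBS minus LD and Hes1 (_at, 1.28) in FBS minus HD.

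Hes1 encodes the Hes repressor that answers Notch most widely, in neural and in other cells, and it also represses its own promoter. On the _at probe set it had 229, 204, 147 and 186 in RA/Fsk and 240.0, 237, 234 and 180 in FBS. It had 152, 27.0 and 157 in HD and 124, 122 and 146 in LD. Each treated culture was above each LD culture, with the lowest RA/Fsk culture at 146.6 and the highest LD culture at 146.3. All FBS cultures were above all HD cultures. Hes1 (_at) rose by 1.28 ± 0.40 in FBS against HD, 2.42-fold (interval 0.43 to 2.12, adjusted p = 0.0295), with means of 223 ± 28.6 in FBS (SD, n = 4) and 112 ± 73.6 in HD (SD, n = 3).

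HD culture 2 carried much of this difference. Its 2 arrays read 36.4 and 19.8, and without this culture FBS minus HD was 0.50 (adjusted p = 0.106). The call also ended without FBS culture 1 (adjusted p = 0.0650), FBS culture 2 (0.0648) or FBS culture 3 (0.0629). Quantile normalization (1.12, adjusted p = 0.0537) and centring each array on its median (1.08, adjusted p = 0.0635) ended it too. That centring turned the array-wide median difference of FBS minus HD to -0.16, against 0.03 as scaled by the authors, and the array-wide calls to 722 up and 1138 down, against 984 up and 848 down. In RA/Fsk minus FBS it gave 852 up and 688 down, against 723 up and 883 down.

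Against LD, Hes1 (_at) differed by 0.74 ± 0.40 in FBS (interval -0.10 to 1.59, adjusted p = 0.207) and by 0.52 ± 0.40 in RA/Fsk (-0.33 to 1.37, adjusted p = 0.524). The spread used here comes from all 4 groups, HD included. Without HD culture 2 the same 0.74 had an adjusted p of 0.00486. Over 27 alternatives FBS minus LD on this probe set passed in 2, with adjusted p between 0.00417 and 0.342. The _g_at probe set of Hes1 had 134.5, 120.2, 82.5 and 180.1 in RA/Fsk and 181, 201, 155 and 122 in FBS. It had 172, 53.3 and 90.0 in HD and 105, 95.2 and 86.7 in LD. FBS cultures were all above LD cultures here too, while RA/Fsk culture 3 lay below all LD cultures. FBS minus LD was 0.73 ± 0.32 (interval 0.06 to 1.40, adjusted p = 0.109) and FBS minus HD was 0.75 ± 0.32 (0.08 to 1.42, adjusted p = 0.119). Without HD culture 2 this FBS minus LD difference still did not pass (adjusted p = 0.0592). The Hes1 probe sets correlated at r = 0.789 over the 14 cultures, again a description.

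Hes5 encodes a Hes repressor largely restricted to neural cells, where its level is widely used as a readout of Notch activity in progenitors. On the _at probe set the RA/Fsk cultures had 34.0, 20.1, 13.9 and 21.7 and the FBS cultures 15.9, 22.3, 25.3 and 41.2. The HD cultures had 71.6, 23.3 and 122 and the LD cultures 75.7, 54.0 and 65.1. All 8 treated cultures were below all 3 LD cultures, and HD spanned nearly the whole range, with HD culture 4 the highest of all and HD culture 2 among the treated ones. The treated cultures were below the median positive value of 49.9, so the low end is dim, and detection calls were not used here.

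Hes5 (_at) averaged 26.2 ± 10.8 in FBS (SD, n = 4) and 64.9 ± 10.8 in LD (SD, n = 3). It fell by 1.21 ± 0.43 in FBS against LD, 2.32-fold lower (interval -2.12 to -0.30, adjusted p = 0.0480). RA/Fsk cultures averaged 22.4 ± 8.42 (SD, n = 4), and RA/Fsk minus LD was -1.39 ± 0.43 (interval -2.30 to -0.48, adjusted p = 0.0578), which did not pass. The treatments themselves differed by -0.17 ± 0.40 in RA/Fsk minus FBS (-1.02 to 0.67, adjusted p = 0.840). Against HD the differences were -1.29 ± 0.43 in RA/Fsk (adjusted p = 0.0696) and -1.12 ± 0.43 in FBS (adjusted p = 0.0794). HD minus LD was -0.09 ± 0.46, with a wide interval of -1.07 to 0.88.

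The differences of the treated groups from LD and from HD lay close to the threshold. Without HD culture 2 the adjusted p was 0.0184 in RA/Fsk minus LD, 0.0140 in FBS minus LD, 0.00751 in RA/Fsk minus HD (difference -1.90) and 0.00426 in FBS minus HD (-1.72). RA/Fsk minus LD also passed without RA/Fsk culture 1 (adjusted p = 0.0391) or HD culture 4 (0.0355). The differences from HD became smaller without HD culture 4, the highest, at -0.81 in RA/Fsk minus HD and -0.64 in FBS minus HD. Over 26 alternatives RA/Fsk minus HD passed in 5 (adjusted p up to 0.365) and FBS minus HD in 4 (up to 0.423). The FBS minus LD call ended without FBS culture 1 (0.129), FBS culture 2 (0.0960), FBS culture 3 (0.0823), LD culture 1 (0.137), LD culture 3 (0.0701) or LD culture 4 (0.104). It ended as well without RA/Fsk culture 2 (0.0573), RA/Fsk culture 4 (0.0577) or HD culture 1 (0.0585), which change the shared spread. With the GAPDH ratio as a covariate FBS minus LD was -1.37 (adjusted p = 0.108).

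The _g_at probe set of Hes5 was near the bottom of the array, below the median of all values in 14 of 14 cultures. It read 5.7 to 11.6 in RA/Fsk, 5.0 to 9.0 in FBS, 5.9 to 11.8 in HD and 9.1 to 11 in LD. FBS cultures were below LD cultures here too, with a difference of -0.25 ± 0.24 (interval -0.75 to 0.25, adjusted p = 0.497). It correlated with the _at probe set at r = 0.662 over the 14 cultures.

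**Figure D3:**
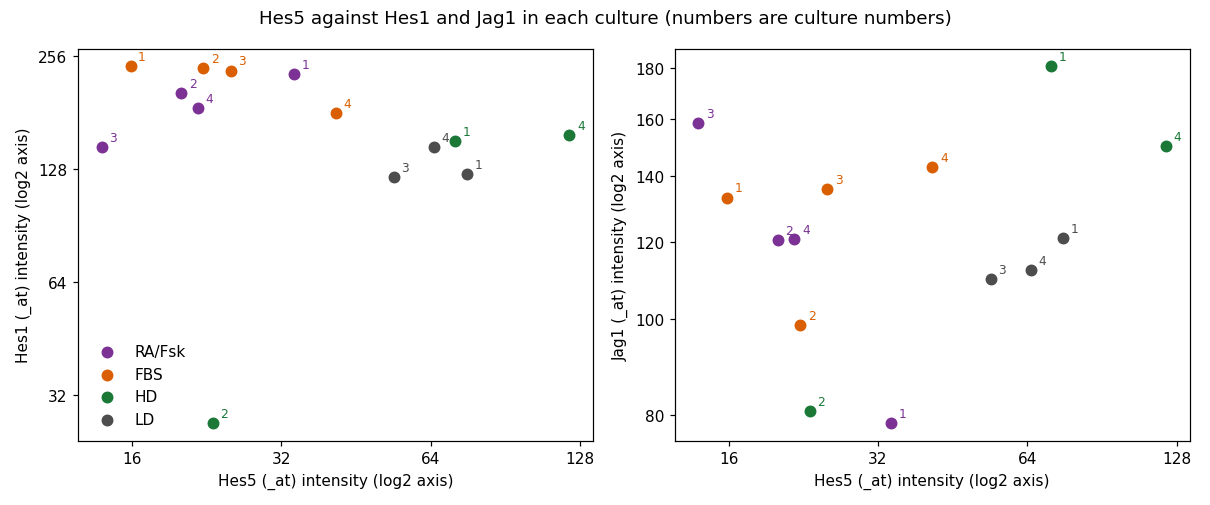
Intensity of Hes5 (_at, horizontal, log2 axis) against Hes1 (_at, left) and Jag1 (_at, right, log2 axes), with 1 point per culture coloured by group and numbered as in the labels. HD culture 2 sits at 23.3 for Hes5, 27.0 for Hes1 and 80.7 for Jag1, away from the HD cultures 1 and 4.

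HD culture 2 stood apart from the HD cultures 1 and 4 in the pathway. It was the lowest HD culture for Jag1 and for both probe sets of Hes1 and Hes5, and the highest for both probe sets of Notch1. Its Hes1 (_at) value lay 2.29 log2 and its Hes5 (_at) value 1.44 log2 below the nearer of the other HD cultures. Over the array, 1.12% of probe sets were at least 1 log2 below both other HD cultures in HD culture 2, compared with 0.549% for HD culture 1 and 1.59% for HD culture 4. The 2 arrays of HD culture 2 read 24.5 and 22.1 for Hes5 (_at), 55.5 and 51.1 for Hes1 (_g_at) and 78.6 and 82.8 for Jag1, and lay further apart for Hes1 (_at), at 36.4 and 19.8. Its array-wide correlation with the other HD cultures was 0.975, like theirs with each other.

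Hes3 encodes a Hes repressor known from early neural development and neural stem cells. Its probe set had 98.5, 75.5, 61.5 and 98.9 in RA/Fsk and 57.5, 75.9, 59.5 and 51.4 in FBS. It had 74.1, 77.1 and 60.9 in HD and 80.1, 95 and 105 in LD. All FBS cultures and all HD cultures were below the LD cultures, and RA/Fsk overlapped every group. FBS minus LD was -0.58 ± 0.22 (interval -1.05 to -0.10, adjusted p = 0.0708) and did not pass. HD minus LD was -0.38 ± 0.24 (-0.88 to 0.13, adjusted p = 0.514), and RA/Fsk minus LD was -0.17 ± 0.22 (-0.64 to 0.31, adjusted p = 0.755). FBS minus LD passed in 7 of 27 alternative settings, with adjusted p between 0.02 and 0.204 over them.

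Hes2 encodes a less studied member of the family. Its probe set was dim, below the median of all values in every culture. It read 10.5, 3.6, 3.2 and 36.4 in RA/Fsk and 2.9, 2.8, 6.3 and 2.7 in FBS. It read 8.3, 3.3 and 4.4 in HD and 10.1, 12.1 and 8.2 in LD. FBS cultures were below LD cultures, and RA/Fsk culture 4 was above all others. FBS minus LD was -0.81 ± 0.42 (interval -1.71 to 0.08, adjusted p = 0.188), and duplicate arrays of a culture differed by up to 1.43 log2.

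Ordered by mean log2 value, Notch1 (_g_at) ran LD, HD, RA/Fsk, FBS and Hes5 (_at) ran LD, HD, FBS, RA/Fsk. Hes1 ran FBS, RA/Fsk, LD, HD on both probe sets. In 0 of the 10 probe sets did neighbouring groups in this order differ at an adjusted p under 0.05, so only the ends of an order, or groups 2 steps apart, were separated.

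In FBS against LD, where Hes5 (_at) and Notch1 (_g_at) fell, 11 of 11 probe sets of 5 dividing-cell genes fell as well, beside 12.3% of all probe sets. Their summed intensity was 4159 to 4795 in FBS and 13589 to 17434 in LD. In RA/Fsk against LD 7 of 11 fell, beside 3.54% of all, with sums of 4746 to 11893 in RA/Fsk. There neither Hes5 (_at, adjusted p = 0.0578) nor Notch1 (_g_at, 0.425) passed. In HD against LD 0 of 11 passed, with sums of 14385 to 17634 in HD. The summed intensity of the 16 astrocyte probe sets was 13074 to 14971 in RA/Fsk, 10399 to 14664 in FBS, 6092 to 8191 in HD and 4246 to 4900 in LD. Of 19 probe sets of 9 oligodendrocyte lineage genes, 2 rose (Mbp, 2.45, and Cnp, 0.78) and 0 fell in RA/Fsk against LD. In FBS 1 rose (Mbp, 1.46) and 4 fell against LD (Pdgfra on 3 probe sets, by 2.51, 1.37 and 0.59, and Ugt8, by 1.29), and in HD against LD 0 passed. Their sums were 3068 to 5343 in RA/Fsk, 1944 to 2412 in FBS, 2724 to 3364 in HD and 2524 to 3345 in LD. The part of these lists in the Notch pathway differences was not tested. Of 12 probe sets of microglia and macrophage genes 0 passed in any comparison, and their sums were 176 to 252 in FBS and 200 to 305 in LD. Of 10 pericyte and smooth muscle probe sets 3 rose in FBS against LD, whose part was not tested.

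The rest of the pathway was followed on a list of 78 genes, of which 25 were measured, on 42 probe sets. In FBS against LD 8 of the 42 rose and 9 fell. In RA/Fsk against LD 1 rose and 0 fell, and in HD against LD 1 rose and 0 fell. In RA/Fsk minus FBS 5 rose and 7 fell, in RA/Fsk minus HD 2 rose and 3 fell, and in FBS minus HD 6 rose and 9 fell. The shares of the array are those given above. The median difference of the 42 was -0.07 in FBS minus LD and 0.01 in RA/Fsk minus LD, beside -0.09 and -0.05 over all probe sets.

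Among 11 probe sets of 6 other ligands, 0 rose and 2 fell in FBS against LD, with a median difference of -0.20 beside -0.09 over the array. Dll1 (_at), a Delta-type ligand that newborn neurons present to progenitors, fell by 1.33 ± 0.27 (adjusted p = 0.00140), with means of 47.7 ± 11.3 in FBS and 127 ± 24.1 in LD, while its _s_at probe set gave -0.14 ± 0.27 (adjusted p = 0.776). Cntn1, an adhesion molecule reported to bind Notch, fell by 1.61 ± 0.20 (adjusted p = 1.43e-05), with means of 471 ± 117 in FBS and 1426 ± 205 in LD. RA/Fsk minus LD did not pass for either gene.

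Of the proteases that process the receptors 5 genes were measured, and 3 of them had probe sets that rose in FBS against LD. There 5 of 8 probe sets rose and 0 fell, beside 13.2% and 12.3% of all probe sets. The median difference was 1.08 beside -0.09 over the array. The ADAM genes Adam10 (0.71 ± 0.30, adjusted p = 0.0985) and Adam17 (0.59 ± 0.29, 0.161) did not pass. Furin, which cuts the receptor on its way to the membrane, rose by 2.12 ± 0.17 on its _g_at probe set (adjusted p = 1.42e-07). The means there were 489 ± 35.3 in FBS and 109 ± 14.4 in LD. The _at probe set of Furin rose by only 0.90 ± 0.20 (adjusted p = 0.00308), with means of 255 ± 24.1 in FBS and 135 ± 18.2 in LD. Psen2, a catalytic subunit of gamma-secretase, rose by 2.38 ± 0.37 on its _g_at probe set (adjusted p = 0.000121), with means of 90.0 ± 17.3 in FBS and 14 ± 7.67 in LD. The _at probe set of Psen2 gave 0.45 ± 0.31 (adjusted p = 0.338) and did not pass. Aph1a, another gamma-secretase subunit, rose by 1.38 ± 0.15 (adjusted p = 4.04e-06) in FBS, by 0.78 ± 0.15 (0.00413) in RA/Fsk and by 0.82 ± 0.16 (0.0242) in HD, each against LD on its _at probe set. The _g_at probe set of Aph1a rose by 1.27 ± 0.21 in FBS against LD (adjusted p = 0.000173). It did not pass in RA/Fsk (0.65 ± 0.21, 0.0635) or in HD (0.90 ± 0.22, 0.0701) against LD. In RA/Fsk minus FBS 5 of the 8 protease probe sets fell and 0 rose.

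Of 10 probe sets of the nuclear complex and its co-regulators, 1 rose and 3 fell in FBS against LD, with a median difference of -0.05. Rbpj, the DNA-binding partner of the receptor domain, rose by 0.86 ± 0.21 (adjusted p = 0.00575), with means of 145 ± 14 in FBS and 79.8 ± 26.2 in LD. It fell by 0.71 ± 0.20 in RA/Fsk against FBS (adjusted p = 0.0172). The co-repressor gene Ctbp1 fell by 0.49 ± 0.13 (adjusted p = 0.00791) on its _at and by 0.69 ± 0.14 (0.00102) on its _g_at probe set, and Hdac2, a histone deacetylase, fell by 0.89 ± 0.21 (adjusted p = 0.00447). In RA/Fsk against LD 0 of these 10 passed.

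Of 10 probe sets of other Notch targets, 2 rose and 4 fell in FBS against LD, with a median difference of -0.36, and 0 passed in RA/Fsk against LD. Fabp7, a fatty acid binding protein of radial glia that also stands among the progenitor markers used here, fell by 1.79 ± 0.27 (adjusted p = 9.36e-05), with means of 141 ± 38.2 in FBS and 491 ± 55.0 in LD. It was 708 ± 264 in RA/Fsk, and RA/Fsk minus FBS was a rise of 2.23 ± 0.25 (adjusted p = 7.99e-06). Bhlhe40, a bHLH repressor, rose by 1.51 ± 0.27 in FBS against LD (adjusted p = 0.000374). The growth regulator Myc fell on both probe sets, by 0.93 ± 0.25 (adjusted p = 0.00982) and 1.31 ± 0.26 (0.000999). Of 5 probe sets of Ccnd1, the cyclin of the G1 phase, 1 fell, by 0.79 ± 0.19 (adjusted p = 0.00510).

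**Figure D4:**
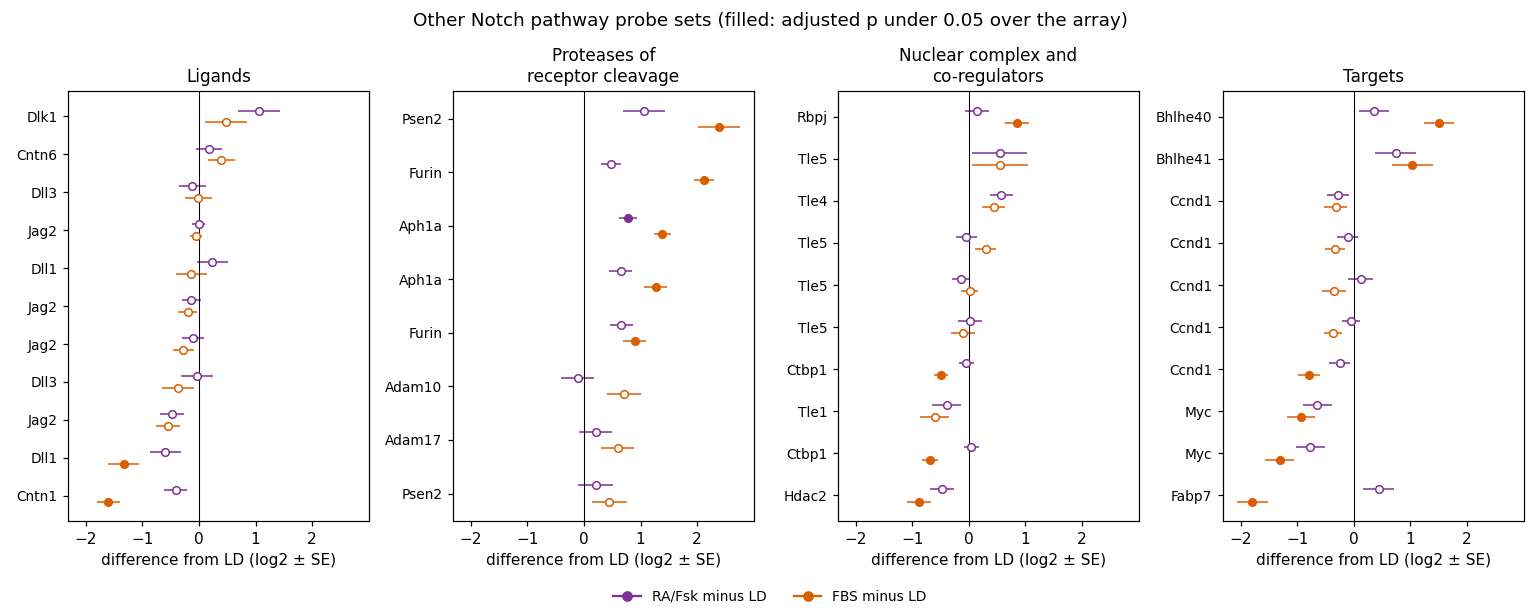
Differences from LD (log2 ± SE) of other Notch pathway probe sets, for RA/Fsk minus LD above FBS minus LD in each pair, with filled points where the adjusted p was under 0.05. FBS has filled points to the right for 5 of 8 protease probe sets, among them Furin at 2.12 (_g_at) and 0.90 (_at). To the left it has filled points for Cntn1 (-1.61) and Fabp7 (-1.79), among others, while RA/Fsk has 1 filled point, Aph1a at 0.78.

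The partners and opponents of Hes proteins in the bHLH family were read on 18 probe sets of 13 genes. In RA/Fsk against LD 0 rose and 2 fell, with a median difference of -0.26 beside -0.05 over the array. In FBS against LD 4 rose and 1 fell, and in RA/Fsk against FBS 0 rose and 6 fell. Over the array 4.71% rose and 3.54% fell in RA/Fsk against LD, 13.2% and 12.3% in FBS against LD, and 8.27% and 10.1% in RA/Fsk against FBS. Among the 4 rises was Neurod1 (_at), which was dim, with means of 13.4 ± 3.84 in FBS and 3.28 ± 0.89 in LD. Its _g_at probe set gave -1.29 ± 0.60 in FBS minus LD (adjusted p = 0.139). The Id genes encode proteins that bind bHLH factors and keep them off DNA. Id1 (_g_at) had means of 114 ± 55.0 in RA/Fsk, 931 ± 210 in FBS and 205 ± 65.7 in LD, with a rise of 2.18 ± 0.33 in FBS against LD (adjusted p = 8.54e-05) and a fall of 3.06 ± 0.31 in RA/Fsk against FBS (2.18e-06). The _at probe set of Id1 gave 0.20 ± 0.26 in FBS minus LD (adjusted p = 0.647) and -0.34 ± 0.24 in RA/Fsk minus FBS (0.423), neither of which passed. The brighter Id3 probe set rose by 3.15 ± 0.38 in FBS against LD (adjusted p = 9.78e-06) and by 1.81 ± 0.41 in HD against LD (0.0499). The other Id3 probe set rose by 2.52 ± 0.29 in FBS against LD (6.00e-06) and did not pass in HD against LD (1.31 ± 0.31, 0.0617). Id2 fell by 1.62 ± 0.22 in RA/Fsk against FBS (5.33e-05) and by 0.99 ± 0.24 in RA/Fsk against LD (0.0145). Tcf12 (_at), an E protein that pairs with proneural factors, fell by 1.21 ± 0.18 in RA/Fsk (adjusted p = 0.000291) and by 0.59 ± 0.18 in FBS (0.0180) against LD, and rose by 1.05 ± 0.19 in HD against LD (0.0114). Its _s_at probe set gave -0.55 ± 0.25, -0.26 ± 0.25 and 0.82 ± 0.27 in these comparisons and did not pass (adjusted p = 0.220, 0.517 and 0.181).

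Likeness to the members that passed was read as Pearson's r of log2 values over the 14 cultures, among 4087 probe sets. It is a description of points that share arrays and groups. Hes5 (_at) was most like Traf2 (r = 0.904), Ciao2b (0.857) and Camk1g (0.840). Notch1 (_g_at) was most like Pdap1 (0.866), Ndufb8 (0.835) and Setsip (0.830). Hes1 (_at) was most like Apoc3 (0.812), Etfdh (0.810) and Arsb (0.799), a likeness that includes HD culture 2.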

How the data were processed

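Total RNA was measured on 20 Affymetrix rat arrays, and the authors deposited 1 table of linear intensities per probe set (8799, of which 59 controls were left out). The scaling is inferred from array means trimmed by 2% at each end. Background correction, summarisation, detection calls and upstream tools were not given in the sources used here. The table holds 6 zeros. Of 8740 probe sets, 7006 have a single symbol in the platform annotation, 308 several and 1426 none, and 6985 gene identifiers matched RefSeq GRCr8.

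From the deposited intensities log2(intensity + 4.99) was computed, the added constant being 10% of the median positive intensity (49.9). Same-numbered arrays within a group were averaged and are called a culture. All 14 cultures of 4 groups entered 1 fit in limma 3.58.1 under R 4.3.3 (functions lmFit and eBayes, prior variance trended on intensity, 10 residual and 6.13 prior degrees of freedom), with Benjamini-Hochberg adjustment over 8740 probe sets and a threshold of 0.05. The fit was tested on simulated data. The labels do not say that numbers are separate cultures, so the p-values reflect only the spread among these samples, which may be technical, and the number of arrays limits the precision.

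Deviations of same-numbered RA/Fsk and LD cultures from their group means correlated weakly (r = 0.327, 0.157 and 0.108 over probe sets). Cultures of unlike number were not compared and the labels state no pairing, so whether the numbers pair these cultures is not known. The fit reported did not pair cultures by number. In the other comparisons at least 1 pair had an r of 0.1 or less. Members, gene lists and tests were chosen with earlier results of these data known. Named from the lists were, of the genes that passed, at most 12 other Notch genes and 6 bHLH genes, those with the smallest adjusted p. Likeness was computed among probe sets with a single symbol whose brightest group reached the median of all values. Alternatives were other pseudocounts, scalings, filters, array averaging, covariates and leaving out each culture.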

Additional observations from a re-analysis of the deposited data

Results flagged for a closer look

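Among the 20 groups of 4 cultures checked for a single distant value, 3 had a culture whose gap to the others took up most of the range of its group, where chance gives about 1 in 20. Hes1 (_at) was 180 in FBS culture 4, below 234 to 240.0 in the other FBS cultures. Notch2 (_at) was 18.6 in FBS culture 3, below 30.3 to 32 in the other FBS cultures, and the 2 arrays of this culture read 36.8 and 8.3. Hes2 (_at) was 6.3 in FBS culture 3, above 2.7 to 2.9 in the other FBS cultures, and its 2 arrays read 12.4 and 2.4. The groups of 3 cultures were not checked in this way.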

How the results depend on the processing

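Over the 10 probe sets and 6 comparisons, 1516 values from alternative settings kept the direction or missed the threshold as before, 32 passed only under the alternative, 30 passed only in the fit reported, and 0 called differences changed sign. Notch1 (_g_at) in FBS minus LD passed in 19 of 27 settings (adjusted p 0.0145 to 0.379, difference -0.63 to -0.28), Hes5 (_at) in FBS minus LD in 12 of 26 (0.0105 to 0.137, -1.42 to -0.75) and Hes1 (_at) in FBS minus HD in 19 of 27 (0.00791 to 0.106, 0.50 to 1.68). In RA/Fsk minus LD the count of members passing was 0, and it was 1 with quantile normalization, without probe sets below the median on every array, and with every array entered singly. In FBS minus LD the count was 2, and it was 1 with a pseudocount of 32, where Hes5 (_at) did not pass (adjusted p = 0.0526). It was also 1 without the intensity trend, where Notch1 (_g_at, 0.0737) and Hes5 (_at, 0.0505) did not pass and Hes3 (_at, 0.0485) did. The count was 0 with array 3r alone for FBS culture 3 or with the GAPDH ratio as a covariate, and 5 with only the 2 groups compared. It was 3 with quantile normalization, median centring, the same filter or single arrays, where Hes3 (_at) passed too (adjusted p = 0.02, 0.0296, 0.0480 and 0.0283). In RA/Fsk minus HD it was 0, and it was 1 with quantile normalization, median centring, the same filter and single arrays. In FBS minus HD it was 1, and it was 2 with quantile normalization or median centring, where Hes1 (_at) did not pass (adjusted p = 0.0537 and 0.0635) while Notch1 (_at, 0.0488 and 0.0484) and Hes5 (_at, 0.0352 and 0.0283) did, 0 without the trend or with only the 2 groups, and 3 with single arrays. With 1 culture left out the counts were 0 to 1 in RA/Fsk minus LD, 0 to 3 in FBS minus LD, 0 to 1 in RA/Fsk minus FBS, 0 to 1 in RA/Fsk minus HD and 0 to 2 in FBS minus HD. A replicate block, which pairs cultures by number, was also entered, though the labels do not say that the numbers pair cultures. With it 1 member passed in FBS minus LD (Notch1 (_g_at), while Hes5 (_at) was -1.06 with adjusted p = 0.0661). In RA/Fsk minus LD 0 members passed with the block (Hes5 (_at) -1.24, adjusted p = 0.0744). There 2 other Notch probe sets passed, against 1 without the block. The causes of these changes were not tested. Low signal limits what Notch2, Hes2 and Hes5 (_g_at) can show. Within HD minus LD the count was 0 in each alternative run.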
